A study of Mus musculus with 16 samples.

Results

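Nucleoporins are the proteins that build the nuclear pore complex, the channel through the nuclear envelope by which proteins and RNA pass between nucleus and cytoplasm. The genes described here are 30 nucleoporin genes of the mouse, found by their symbols in the deposited tables, where they occupy 31 of 53090 rows. They were put forward as pore genes that take a large part in a lower glycolysis-set score of naïve Aim2-/- cells, so results of these data were known when they were chosen.

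The pore is assembled from repeated modules. The Y complex forms the outer rings, the Nup93 complex the inner ring, the Nup62 complex the lining of the central channel, and membrane proteins anchor the ring in the envelope. Filaments on the cytoplasmic face take part in mRNA release and in the last step of export, and the nuclear basket faces the chromatin. Resting naïve T cells are small and enlarge strongly once they are stimulated through the T cell receptor, before they divide.

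RNA was sequenced from splenic CD4+ T cells in 4 groups with 4 libraries each, which makes 16 libraries. WT Tn and Aim2-/- Tn were naïve CD4+ T cells, selected magnetically, for which no culture is stated. WT Treg and Aim2-/- Treg were cells kept for 48 h with antibodies to CD3 and CD28, recombinant human TGF-beta and recombinant mouse IL-2, the conditions that induce Foxp3. WT mice were C57BL/6, and the Aim2-/- mice had a germline deficiency of Aim2, a cytosolic sensor of double-stranded DNA, on the same background, so that the deficiency was not limited to T cells. The ages of these mice are not given in the sources used here, and the labels do not say whether each library came from a separate mouse, so p-values measure the spread between these libraries only. Culture, stimulation, cytokines and time go together in the comparison of Treg with Tn and cannot be told apart. The cultured cells were not sorted for Foxp3.

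The libraries held 22516424 to 34533316 counts. The smallest signal taken as measurable, 3 counts, came to 0.0869 to 0.133 CPM before TMM scaling, a limit that covers counting error only. All other CPM values are counts as a share of each library, scaled by TMM. Aim2 itself lay between 32.3 and 43.3 CPM in the 8 WT libraries and between 6.61 and 10.8 CPM in the 8 Aim2-/- libraries, a log2 fold change of -2.24 (SE 0.13, edgeR adjusted p = 1.1e-05) in Tn and -2.12 (SE 0.13, adjusted p = 0.00013) in Treg. The labels were thus matched by the targeted gene in every library, although Aim2 reads did not vanish. The WT Tn libraries fell into pairs over all genes, with a chi-square per degree of freedom of 12.6 between replicates 1 and 2, 10.6 between 3 and 4, and 66.8 to 85.1 across the pairs. Foxp3, the factor that defines Treg cells, was 170-fold higher in WT Treg than in WT Tn (adjusted p = 8.8e-08). The summed CPM of the B cell, myeloid, erythroid and CD8 T cell marker lists stayed between 0.181 and 12.2 in all libraries, that of the NK cell list between 0.304 and 15.1, and that of the CD4 T cell list between 1860 and 4290.

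Of the 31 rows, 30 passed the filter on low counts in every comparison. The symbol Nupl1, a subunit of the central channel, has 2 rows. ENSMUSG00000114797.1, which GENCODE M21 names Gm49336 and which overlaps the other on the same strand, held 49.9 to 129 CPM and was tested. ENSMUSG00000063895.7 stayed at or below 0.656 CPM (19 counts) and was not. How reads were split between them is uncertain. Expected counts were not whole, so that reads were shared with other genes, in at least 8 of the 16 libraries for 8 of the tested members. Among these, Nup214, Tpr, Nup133 and Pom121 shared reads in all 16.

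**Figure D1:**
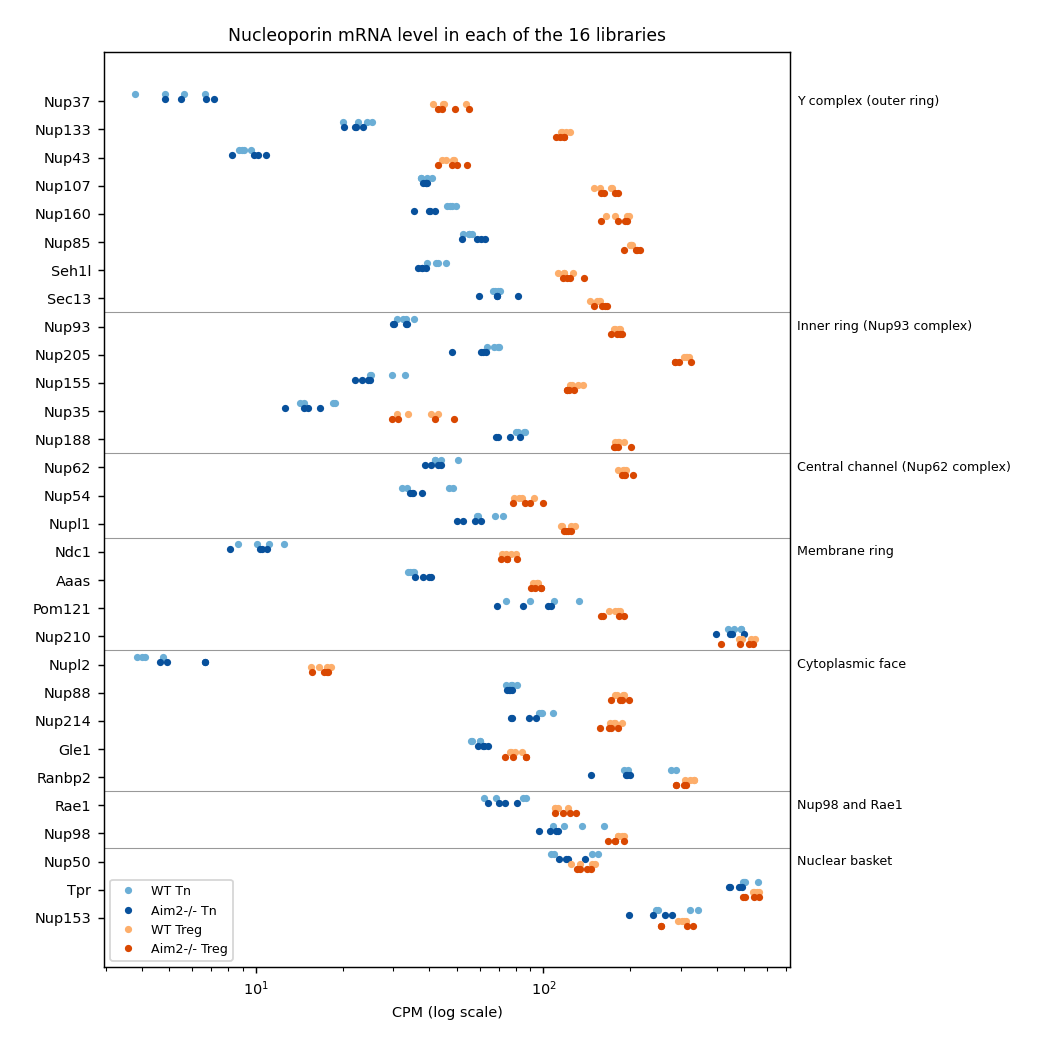
CPM of the 30 tested nucleoporin genes in each of the 16 libraries, on a log scale, with 1 point per library and genes grouped by their place in the pore. Points of Treg libraries (orange) stand to the right of those of Tn libraries (blue) for most genes, and the colours mix for Nup210 and the nuclear basket genes Nup50, Tpr and Nup153, while light and dark points of the same hue, WT and Aim2-/-, mostly mix.

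Promoter sequences are shown for the 3 members with the largest rise in WT Treg culture (Nup37, Ndc1 and Nup93) and for 2 basket genes that did not pass the test there (Tpr and Nup50), so that both kinds can be compared by eye. They are RefSeq sequences on GRCm38.p6, from 250 bases before to 50 bases after the transcription start, 5′ to 3′ in the direction of transcription. Nup37 and Nup93 have another promoter in the same source, and only the first by position is printed. Capitals mark the letters searched on both strands: CACGTG (the E-box bound by Myc and related factors), CCAAT (bound by NF-Y), GCGCANGC (a core like that of NRF1 sites), CCGGAAG (ETS family), TTTCGCGC and TTTGGCGC (E2F sites) and TTTGAA (the core of the cell cycle homology region).
Nup37, chr10:88146742-88147041, plus strand: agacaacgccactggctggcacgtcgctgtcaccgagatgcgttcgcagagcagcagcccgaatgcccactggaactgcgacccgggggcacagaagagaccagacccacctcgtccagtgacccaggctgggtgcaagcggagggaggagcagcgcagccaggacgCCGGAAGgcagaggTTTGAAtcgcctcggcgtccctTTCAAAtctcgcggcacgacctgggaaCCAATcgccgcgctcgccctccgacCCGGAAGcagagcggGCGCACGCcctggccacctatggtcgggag
Ndc1, chr4:107367797-107368096, plus strand: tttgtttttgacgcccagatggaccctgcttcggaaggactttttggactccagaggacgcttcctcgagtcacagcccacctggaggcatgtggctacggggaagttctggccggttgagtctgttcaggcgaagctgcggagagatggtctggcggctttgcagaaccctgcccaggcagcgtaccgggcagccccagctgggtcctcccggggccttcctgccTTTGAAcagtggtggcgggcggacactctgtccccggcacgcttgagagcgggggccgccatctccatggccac
Nup93, chr8:94214314-94214613, plus strand: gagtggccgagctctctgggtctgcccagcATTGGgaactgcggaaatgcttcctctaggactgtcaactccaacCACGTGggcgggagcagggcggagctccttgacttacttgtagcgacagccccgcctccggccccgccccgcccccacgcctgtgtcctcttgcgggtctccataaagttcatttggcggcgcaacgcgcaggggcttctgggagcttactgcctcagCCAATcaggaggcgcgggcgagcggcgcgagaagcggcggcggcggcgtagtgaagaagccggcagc
Tpr, chr1:150392588-150392887, plus strand: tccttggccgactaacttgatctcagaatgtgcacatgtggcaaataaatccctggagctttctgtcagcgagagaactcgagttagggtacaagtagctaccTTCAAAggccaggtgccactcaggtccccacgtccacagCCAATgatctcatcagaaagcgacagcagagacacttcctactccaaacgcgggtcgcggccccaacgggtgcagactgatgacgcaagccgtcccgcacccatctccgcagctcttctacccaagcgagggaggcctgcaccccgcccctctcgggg
Nup50, chr15:84923178-84923477, plus strand: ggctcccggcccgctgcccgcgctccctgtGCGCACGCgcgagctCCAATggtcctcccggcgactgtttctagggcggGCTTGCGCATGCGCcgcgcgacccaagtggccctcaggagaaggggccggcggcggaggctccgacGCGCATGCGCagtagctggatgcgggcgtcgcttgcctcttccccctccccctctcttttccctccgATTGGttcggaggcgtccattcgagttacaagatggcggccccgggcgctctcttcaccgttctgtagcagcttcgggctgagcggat

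A promoter was found for 26 of the 30 symbols, and Nup35, Nup43, Nup85 and Seh1l had none. The ETS letters stood in 8 of the 26 (30.8%), against 20.6% of the 9919 expressed genes with a promoter and 9.93% of all 27025 genes with one. The NRF1-like letters stood in 7 (26.9%, against 22.5% of expressed and 11.2% of all genes), and the E-box in 4 (15.4%, against 11.9% and 8.09%), namely Nup188, Nup54, Nup93 and Ranbp2. The NF-Y letters were found in 10 (38.5%, against 42.9% and 41.1%) and the cell cycle core in 6 (23.1%, against 14.4% and 20.2%). Neither E2F form occurred in the 26, and they occurred in 0.736% and 1.17% of expressed genes. A gene was counted if any of its promoters held the letters. The promoter of Nup93 that is not printed (chr8:94266597-94266896) held the NF-Y letters but no E-box. That of Nup37 held the same kinds of letters as the printed one. These are matches of letters and not sites shown to be bound. Nup37, the gene with the largest rise, held the NF-Y, NRF1-like, ETS and cell cycle letters, and Ndc1, with the next largest, held the cell cycle core alone. Tpr and Nup50, which did not pass the test, both held the NF-Y letters. Tpr also held the cell cycle core, as Nup37 and Ndc1 did, and Nup50 also held the NRF1-like letters, as Nup37 did.

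In naïve WT cells the basket genes Tpr and Nup153 and the membrane protein gp210 were the 3 most abundant nucleoporin messages per length. Compared per length (CPM per kb of annotated exon), Tpr, the long coiled-coil protein of the basket, was highest at 48.9 ± 2.71 (SD, n = 4). The length joins all annotated exons of a gene and is not that of a single transcript, so ranks and ratios depend on it. Nup210, which encodes gp210, was at 44.7 ± 2.23 and Nup153, the basket protein that anchors Tpr, at 41.5 ± 7.18. The ranges of 1 SD around these 3 means overlap. In CPM every WT Tn library of Tpr (496 to 556) stood above every one of Nup210 (439 to 488), and the order was not tested. At the other end Nupl2, which helps release mRNA at the cytoplasmic face, was lowest at 1.11 ± 0.104, then Nup37 of the Y complex at 1.57 ± 0.363, Ndc1, a membrane anchor, at 2.15 ± 0.329, and Nup155 of the inner ring at 2.36 ± 0.324. In the order of the 30 levels in WT Tn, 22 of the 29 neighbouring pairs had overlapping ranges of 1 SD around their means.

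After culture the order was another. In WT Treg the highest member per length was Nup62 of the central channel at 65.9 ± 1.78 CPM per kb, then Nup85 of the Y complex at 59.6 ± 0.582, and Tpr was at 52.2 ± 1.2. Nupl2 remained lowest at 4.5 ± 0.326. The ratio of the highest to the lowest member was 44.1 in WT Tn and 14.6 in WT Treg, and it was 29.3 in Aim2-/- Tn and 15 in Aim2-/- Treg. Within the Y complex, whose subunits are built into the pore in fixed proportion, Sec13 stood 13.8 times above Nup37 in WT Tn, and in WT Treg the highest subunit, Nup85, stood 4.29 times above Nup37. These ratios compare levels and were not tested.

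Messages of most nucleoporin genes rose with culture in Treg conditions. These are RNA levels, and protein or the number of pores is not seen in them. In WT cells 26 of the 30 members passed the test, all of them higher in Treg, where 37.7% of the 13675 genes tested were called higher and 39.2% lower. The median log2 fold change of the members was 1.17, beside -0.05 over all genes tested, and in the same 26 the 4 Treg libraries did not overlap the 4 Tn libraries (37.2% of all genes did so in this direction). 9 members rose over 4-fold and 10 between 2-fold and 4-fold. In Aim2-/- cells 26 of 30 members were called higher and 0 lower (39.1% and 40.2% of all genes), with a median of 1.30 beside -0.04. The 26 called were the same genes in both genotypes, and in Aim2-/- cells 27 separated the states (37.3% of all genes), Tpr being the other. Each of the 26 was called higher in both genotypes under all 19 other ways of processing that were tried. Summed over the members, the level went from 2903 ± 171 CPM in WT Tn to 5204 ± 54 CPM in WT Treg (SD, n = 4), and from 2629 ± 149 to 5121 ± 134 CPM in Aim2-/- cells. CPM gives a share of the sequenced mRNA, so that a change in the RNA content of each cell is not seen, and in such bulk samples fewer cells of a type and less RNA per cell cannot be told apart.

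**Figure D2:**
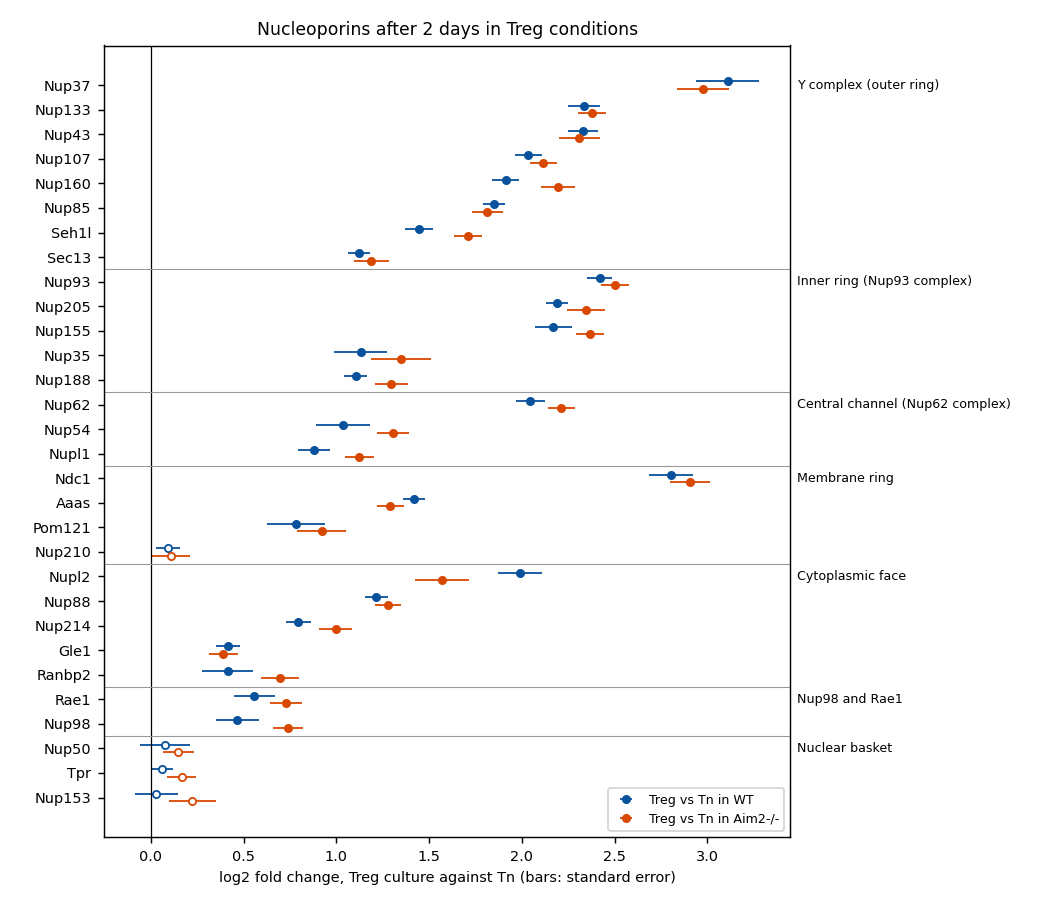
Log2 fold change of each nucleoporin gene between Treg culture and Tn cells, in WT (blue) and Aim2-/- (orange) cells, with bars of 1 standard error, filled points for an edgeR adjusted p under 0.05 and open points for the rest. The Y complex and inner ring reach a median of 1.97 and 2.17 in WT cells, and the 4 open pairs, Nup210, Nup50, Tpr and Nup153, lie near 0.

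For the Y complex, which forms the outer rings and is needed for pore assembly, the message of every subunit rose. All 8 subunits were called in both genotypes, with log2 fold changes from 1.12 (Sec13) to 3.11 (Nup37) in WT cells and a median of 1.97. Nup37 (chr10:88146992-88178390, plus strand, GRCm38) held 4.84, 3.8, 5.62 and 6.65 CPM in the WT Tn libraries and 41.3, 45, 44.6 and 53.8 in the WT Treg libraries. The Aim2-/- libraries held 5.47, 4.82, 7.17 and 6.7 CPM in Tn and 42.9, 44.4, 49.2 and 54.9 in Treg. Every Treg library thus stood far above every Tn library, 8.63-fold in WT (log2 3.11, SE 0.17, adjusted p = 1.4e-07) and 7.87-fold in Aim2-/- cells (log2 2.98, SE 0.14, adjusted p = 5.2e-09).

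Nup133 (chr8:123897123-123949265, minus strand), at the stem of the Y, held 22.6, 20, 24.3 and 25.3 CPM in WT Tn and 115, 124, 116 and 120 in WT Treg. Without Aim2 the values were 22.3, 20.2, 23.6 and 22.1 in Tn and 114, 118, 111 and 118 in Treg. The groups lay far apart, with rises of 5.04-fold (log2 2.33, SE 0.09, adjusted p = 1.2e-08) and 5.19-fold (log2 2.38, SE 0.08, adjusted p = 3.1e-10). Nup43 (chr10:7667503-7678881, plus strand), a small propeller protein of the same complex, held 8.74, 8.93, 9.63 and 9.1 CPM in WT Tn and 44.2, 48.4, 45.8 and 48.9 in WT Treg. Its libraries scattered little and the rise was 5.03-fold (log2 2.33, SE 0.08, adjusted p = 8.1e-09), and 4.96-fold in Aim2-/- cells. The remaining subunits rose by 4.10-fold (Nup107), 3.76-fold (Nup160), 3.61-fold (Nup85), 2.72-fold (Seh1l) and 2.18-fold (Sec13) in WT cells. Sec13 and Seh1l, the smallest rises, are also known to work outside the pore, Sec13 in the coat of vesicles that leave the endoplasmic reticulum and both in the signalling of amino acids to mTORC1.

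The inner ring messages rose as well, all 5 members being called in both genotypes. Nup93 (chr8:94214564-94317227, plus strand), the scaffold that holds the ring together, held 32.5, 30.9, 35.4 and 33.2 CPM in WT Tn and 185, 183, 176 and 177 in WT Treg. The knockout held 30.2, 33.2, 30 and 33.6 CPM in Tn and 180, 188, 172 and 185 in Treg. The 2 states did not approach each other in either genotype, with rises of 5.35-fold (log2 2.42, SE 0.07, adjusted p = 2.7e-09) and 5.66-fold (log2 2.50, SE 0.08, adjusted p = 2.4e-10). Nup155 (chr15:8109273-8161247, plus strand), which links the ring to the membrane, held 24.6, 23.3, 22.1 and 24.9 CPM in Aim2-/- Tn and 128, 121, 121 and 123 in Aim2-/- Treg. That is a rise of 5.16-fold (log2 2.37, SE 0.07, adjusted p = 2.7e-10), and in WT cells it was 4.50-fold. Of the large alpha-helical pair, Nup205 rose 4.56-fold and Nup188 2.15-fold in WT cells, and Nup35, a membrane-binding partner of Nup155, rose 2.19-fold.

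In the central channel, whose FG repeats form the selective barrier, Nup62 rose 4.13-fold, Nup54 2.05-fold and Nupl1 1.84-fold in WT cells, and all 3 were called in both genotypes. The membrane ring was split. Ndc1 (chr4:107367784-107416346, plus strand) held 12.5, 11.1, 10.1 and 8.69 CPM in WT Tn and 71.9, 73.9, 80 and 76.9 in WT Treg. The Aim2-/- values were 10.3, 10.5, 8.14 and 10.9 CPM in Tn and 74.7, 74.9, 70.9 and 80.9 in Treg. Its rise, 6.98-fold in WT (log2 2.80, SE 0.12, adjusted p = 2.5e-08) and 7.50-fold in Aim2-/- cells (log2 2.91, SE 0.11, adjusted p = 8.1e-10), was next to that of Nup37, with no overlap between states. Aaas, which binds Ndc1, rose 2.67-fold, Pom121, an anchor of the ring, 1.72-fold, and Nup210 did not pass the test.

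The messages of the cytoplasmic face and of the mRNA export factors Nup98 and Rae1 rose too. The 5 genes of the cytoplasmic face were all called in both genotypes, with a median of 0.79 in WT cells. They were led by Nupl2 at 3.98-fold and Nup88, which holds the export filament, at 2.32-fold. Nup214 rose 1.73-fold, Gle1, the activator of the helicase that strips proteins from exported mRNA, 1.34-fold, and Ranbp2, a giant SUMO ligase that docks Ran, 1.33-fold (log2 0.41, SE 0.14, adjusted p = 0.02). Rae1 rose 1.47-fold and its partner Nup98 1.38-fold (log2 0.47, SE 0.12, adjusted p = 0.0047). Of the 26 members called in WT cells, 6 had a log2 fold change that differed by over 1.5 times between replicates 1 and 2 taken alone and replicates 3 and 4 taken alone. These were Ranbp2 (0.17 and 0.74), Nup98 (0.33 and 0.67), Nup35 (0.81 and 1.49), Nup54 (0.78 and 1.37), Pom121 (0.61 and 1.04) and, in the other direction, Rae1 (0.78 and 0.40). In Aim2-/- cells 1 of the 26 did so, Gle1 (0.26 and 0.47).

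The 3 basket genes and Nup210 were the 4 members that did not pass the test in either genotype. Nup153 (chr13:46679905-46727940, minus strand) held 324, 345, 247 and 251 CPM in WT Tn and 312, 303, 309 and 294 in WT Treg. The first pair of naïve libraries thus stood above all Treg libraries and the other pair below them, and the log2 fold change over all was 0.03 (SE 0.11, adjusted p = 0.82). Nup50 (chr15:84923411-84942963, plus strand), a basket protein that helps to take imported cargo apart, held 147, 155, 106 and 109 CPM in WT Tn and 134, 125, 148 and 151 in WT Treg. The naïve libraries fell into the same pairs and the difference was 0.08 (SE 0.14, adjusted p = 0.62). With replicates 1 and 2 alone Nup50 was at -0.21 on the log2 scale and with replicates 3 and 4 alone at 0.43, and Nup153 was at -0.11 and 0.24. These values restate the library values above and are given without a test, and what sets the pairs apart was not tested.

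Tpr (chr1:150392838-150449935, plus strand) held 496, 556, 503 and 499 CPM in WT Tn and 552, 563, 539 and 536 in WT Treg, and the groups overlapped through the naïve replicate 2. In Aim2-/- cells it held 489, 478, 444 and 443 CPM in Tn and 541, 561, 502 and 493 in Treg. There the groups did not overlap but the test was not passed (log2 0.17, SE 0.08, adjusted p = 0.071), and in WT cells the difference was 0.06 (SE 0.06, adjusted p = 0.37). Nup210 (chr6:91013068-91116829, minus strand) held 439, 460, 486 and 488 CPM in WT Tn and 543, 526, 492 and 479 in WT Treg. In Aim2-/- cells it held 445, 497, 397 and 452 CPM in Tn and 534, 519, 482 and 414 in Treg. Its groups overlapped in both genotypes, with differences of 0.09 (SE 0.07, adjusted p = 0.23) and 0.11 (SE 0.10, adjusted p = 0.34). Without Aim2, Nup50 and Nup153 were at 0.15 (SE 0.08) and 0.22 (SE 0.13), both with an adjusted p of 0.12. With the replicate number as a block Nup153 passed the test there (log2 0.23, adjusted p = 0.026), and Tpr passed it with DESeq2 (log2 0.19, adjusted p = 0.021), with RLE factors and with all 16 libraries in 1 fit. Once GC content and length were corrected for, the WT differences of Nup153, Tpr and Nup50 turned to -0.15, -0.06 and -0.04, and that of Nup210 became 0.20 and passed the test (adjusted p = 0.006), so no direction is given for any of the 4.

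**Figure D3:**
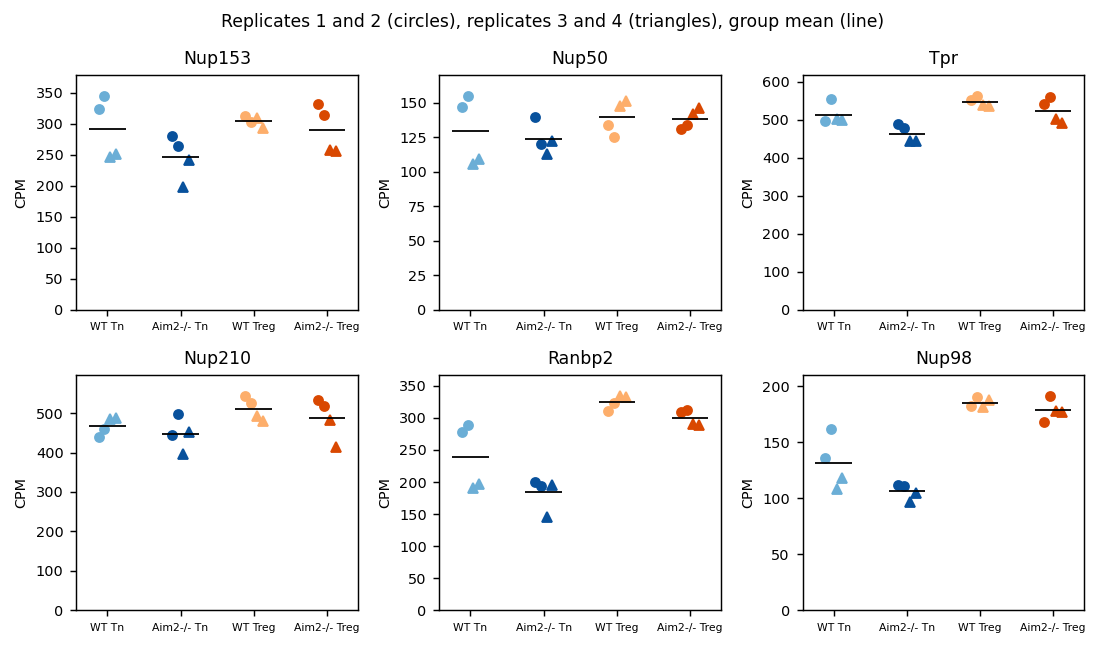
CPM of 6 genes in each library by group, with circles for replicates 1 and 2, triangles for replicates 3 and 4 and a line at the group mean. In WT Tn the circles of Nup153 (324 and 345), Nup50 (147 and 155) and Ranbp2 (278 and 289) stand above the triangles (247 and 251, 106 and 109, 191 and 197), which is not seen in this way for Tpr and Nup210.

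The markers of proliferation moved with the culture. All 14 of the list (among them Mki67, Top2a and the Mcm genes) were higher in WT Treg, by a median of 4.19 on the log2 scale, and their summed level was 629 to 797 CPM in WT Tn and 7470 to 8000 CPM in WT Treg. Their part in the rise of the nucleoporins was not tested.

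Most messages of the soluble side of nuclear transport rose beside those of the pore. Of 16 importins, the receptors and adaptors that carry cargo inward, 13 were called higher and none lower in WT Treg. Kpna2, an importin alpha, rose 25.4-fold (adjusted p = 1.8e-09) and Ipo5 6.32-fold, while Kpna1 and Kpna4 were at -0.73 and -0.33 on the log2 scale and did not pass the test (adjusted p = 0.14 and 0.066). Kpna1 held 173, 201, 58.9 and 50.8 CPM in WT Tn and 70.8 to 78.3 in WT Treg, and Kpna4 held 177, 180, 129 and 118 against 109 to 137. Both thus showed the WT Tn pairs seen for Nup153 and Nup50, and no direction is given for them. Of the 7 exportins tested, 6 were higher, led by Cse1l (3.77-fold), which returns importin alpha to the cytoplasm, and Xpo5 (3.26-fold), which carries precursors of microRNAs, while Xpo6, the exporter of actin, was at -0.15 (adjusted p = 0.092). All 8 rows of the Ran cycle were higher, led by Rcc1 (11.3-fold), which loads Ran with GTP, and Ran itself (5.96-fold).

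Of the mRNA export genes 13 of 16 were higher, with Ddx39 at 3.13-fold and Alyref at 2.90-fold. Nxf1, the main mRNA export receptor, fell by 1.08 on the log2 scale (adjusted p = 8.8e-06). The lamina and envelope genes moved both ways, 5 of 15 being higher and 8 lower, with a list median of -0.50. Lmnb1 (lamin B1) rose 7.68-fold and Banf1, which ties chromatin to the envelope, 3.32-fold. Syne2 and Sun2, which link the nucleus to the cytoskeleton, fell by 2.23 (adjusted p = 1.2e-06) and by 1.73 (adjusted p = 6.2e-06) on the log2 scale. Of the 6 other pore-associated genes tested 4 were higher, among them Tmem33 (1.92-fold) and Senp1 (1.77-fold), and Nup210l was lower (log2 -0.81, adjusted p = 0.011), with Senp2 at -0.15 (adjusted p = 0.088). Over these 6 lists 49 of 68 rows tested were called higher and 10 lower in WT cells, and 51 and 11 in Aim2-/- cells.

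**Figure D4:**
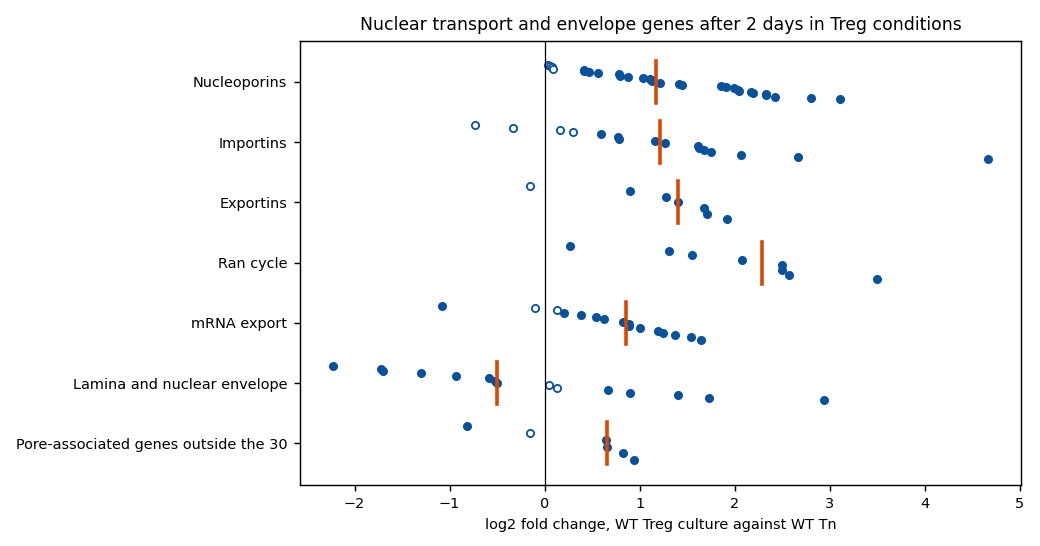
Log2 fold change between WT Treg culture and WT Tn for the 30 nucleoporin rows and 6 lists of nuclear transport and envelope genes, 1 point per gene, filled for an edgeR adjusted p under 0.05, with an orange bar at the list median. The medians lie at 1.17 for nucleoporins, 1.22 for importins, 1.40 for exportins, 2.29 for the Ran cycle, 0.86 for mRNA export, -0.50 for the lamina and envelope and 0.65 for the other pore-associated genes.

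Between genotypes, nucleoporin levels in naïve cells leaned lower in Aim2-/- cells but no member passed the test. By edgeR 0 of 30 were called in Tn (0.231% of 13441 genes were), and DESeq2 and limma-voom called none either. At an unadjusted p under 0.05 there were 1 higher (5.59% of all genes) and 5 lower members (4.75%), or 6 beside 10.3% of all genes. The log2 fold change was negative for 22 of 30 (73.3%, against 47.3% of all genes), and the median was -0.09 beside 0.01. In 6 members (20%) all Aim2-/- Tn libraries lay below all WT Tn libraries (3.59% of all genes did), and in 1, Aaas, above (3.36%). The 6 were Nup160, Nup214, Nup155, Nup205, Tpr and Seh1l. Since the genes were proposed for their part in a lower score of these same libraries, these counts describe the libraries and are no independent evidence of a direction.

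Nup160 (chr2:90677215-90736328, plus strand), of the Y complex, had the smallest p. It held 47.3, 48.1, 46.3 and 49.7 CPM in WT Tn and 42, 40.2, 35.4 and 40 in Aim2-/- Tn. All WT libraries were the higher ones, by a log2 difference of -0.27 in the knockout (SE 0.08), and the adjusted p was 0.38. Nup214 (chr2:31974436-32053975, plus strand), the FG protein of the export filament, held 96.5, 108, 98.6 and 97.9 CPM in WT Tn and 94, 88.9, 78 and 77.2 in Aim2-/- Tn. The groups were apart by a small margin, with a difference of -0.24 (SE 0.09, adjusted p = 0.43). Nupl2 (chr5:24164963-24184013, plus strand) went the other way, with 4.01, 4.74, 4.1 and 3.85 CPM in WT Tn and 6.63, 4.91, 6.64 and 4.63 in Aim2-/- Tn. Its groups overlapped and the difference was 0.46 (SE 0.17, adjusted p = 0.43).

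By module, the 5 inner ring genes were all negative in naïve cells, from -0.24 (Nup155) to -0.05 (Nup93), the 3 channel genes lay between -0.22 and -0.09, and the 3 basket genes between -0.24 and -0.05. The Y complex was mixed, with 3 of 8 negative and a median of 0.02. The largest negative value was that of Ranbp2 at -0.37 (SE 0.16, adjusted p = 0.47), then that of Nup98 at -0.30 (SE 0.13, adjusted p = 0.46), and both overlapped between genotypes. Both were farther from 0 with replicates 1 and 2 alone (-0.52 and -0.40) than with replicates 3 and 4 alone (-0.19 and -0.18). In WT Tn Ranbp2 held 278, 289, 191 and 197 CPM. The SE of the members reached 0.20 (Nup37), and Nupl2 did not pass the test at 0.46, so that differences of that size were not detectable for the noisiest members.

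Gene length moved with this result. The members have a median exon length of 5252 bases, against 3970 over the genes tested, and over 20 bins of length the median difference between genotypes in Tn went from 0.18 (genes of about 908 bases) to -0.16 (genes of about 14298 bases). Of the 8942 other genes within the members' range of lengths 52.8% were negative, with a median of -0.01. With that correction for GC content and length 20 of the 30 members were negative (46.5% of all genes), with a median of -0.05 beside 0.02. Of the members 3 had an unadjusted p under 0.05 by edgeR, and the share of all genes in that fit is not given here. Markers of other cells moved too. The erythroid list summed to 1.5 to 4.08 CPM in WT Tn and 5.55 to 8.07 CPM in Aim2-/- Tn, and of its 6 genes (Alas2, Klf1 and the haemoglobin genes) 4 were tested and all 4 were positive and not called. In both groups 0 of the 6 were at 0 in all libraries. The Treg list summed to 65 to 135 CPM in WT Tn and 122 to 142 CPM in Aim2-/- Tn, with all 7 rows positive and none called. Of these, Ctla4, an inhibitory receptor, held 79.6, 80, 12.8 and 17.6 CPM in WT Tn and 64.5 to 80.6 CPM in Aim2-/- Tn, so that WT replicates 3 and 4 were the low ones. The naïve T cell list ran from 3130 to 5100 CPM in WT Tn and from 3930 to 4790 CPM in Aim2-/- Tn, with 4 of 5 genes positive and none called. The proliferation list had 13 of 14 genes negative in Aim2-/- Tn (median -0.14, none called), with sums of 629 to 797 CPM in WT and 636 to 719 CPM in Aim2-/-. Their part in the genotype difference was not tested.

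**Figure D5:**
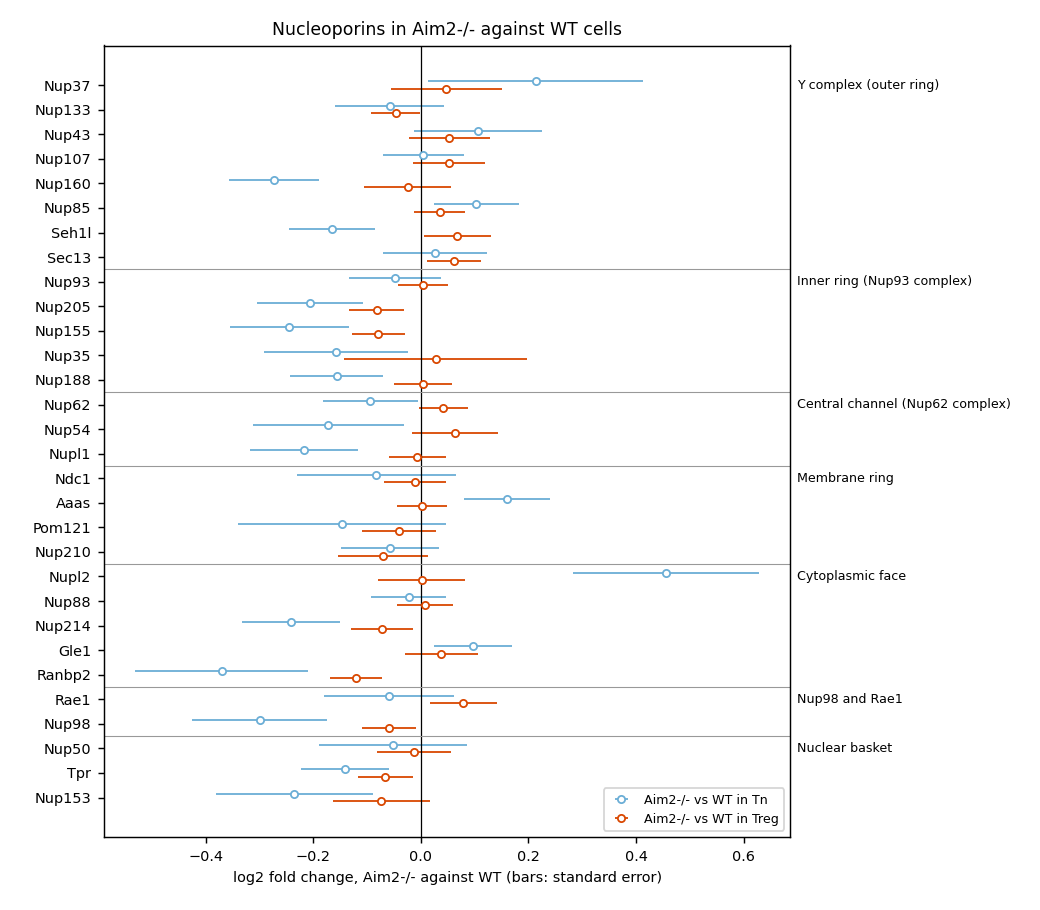
Log2 fold change of each nucleoporin gene between Aim2-/- and WT cells, in Tn (blue) and in Treg (orange), with bars of 1 standard error, all points open because no gene had an edgeR adjusted p under 0.05. Values in Tn run from -0.37 to 0.46 and values in Treg from -0.12 to 0.08.

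In Treg culture 0 of 30 members were called by edgeR (0.219% of 13221 genes were), none by DESeq2 or limma-voom, and 1 had an unadjusted p under 0.05 (2.3% of all genes). There were 14 negative (49.9% of all genes) and 16 positive values, the median was 0.00 and the range -0.12 to 0.08. The median SE of the members was 0.06 here and 0.10 in Tn, and the members were proposed from Tn values only, so the ranges of the states are not compared. In no member were all Aim2-/- libraries above (1.3% of all genes) or below (0.961%) all WT libraries. Ranbp2 (chr10:58446920-58494356, plus strand) held 311, 323, 334 and 333 CPM in WT Treg and 309, 313, 290 and 289 in Aim2-/- Treg, a difference of -0.12 (SE 0.05, adjusted p = 1). Of the Aim2-/- libraries only replicate 2 reached above the lowest WT library. Nup205 (chr6:35177421-35247596, plus strand) held 308, 322, 315 and 314 CPM in WT Treg and 296, 325, 287 and 286 in Aim2-/- Treg, and Nup155 held 124, 126, 137 and 132 against 128, 121, 121 and 123. Both overlapped, with differences of -0.08 (SE 0.05, adjusted p = 1) in each case.

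Whether the genotype difference changed with culture was tested as an interaction over all 16 libraries. No member was called by edgeR (0.0205% of 14669 genes were) or by DESeq2 or limma-voom, 3 had an unadjusted p under 0.05 (3.5% of all genes), and 7 of 30 had a negative value (50% of all genes) and 23 a positive one, with a median of 0.10. Low Aim2-/- Tn values raise the interaction by its construction, so the choice of members bears on these counts as on those in Tn. The 3 were Seh1l (0.24, SE 0.10), Nupl2 (-0.44, SE 0.18) and Nup160 (0.26, SE 0.12), each with an adjusted p of 1. Seh1l held 45.8, 42.9, 42.4 and 39.4 CPM in WT Tn and 36.7, 37.7, 39.1 and 37.8 in Aim2-/- Tn. In Treg it held 112, 118, 118 and 127 CPM in WT and 117, 124, 121 and 138 in Aim2-/- cells. The lowest WT Tn library stood just above the highest Aim2-/- Tn library, and the Treg values overlapped. Nupl2 held 17.7, 18.2, 16.5 and 15.5 CPM in WT Treg and 17.2, 17.8, 15.6 and 17.6 in Aim2-/- Treg, and Nup160 held 165, 178, 195 and 198 against 158, 182, 192 and 196. Both genes thus overlapped throughout in Treg. Gene length moved with the interaction as well, from a median of -0.13 (genes of about 863 bases) to 0.10 (genes of about 14242 bases). With the GC and length correction 10 of the 30 members were negative (50.5% of all genes), with a median of 0.06.

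The transport lists held no gene called by genotype in either state, with 0 of 68 rows in Tn and 0 of 68 in Treg. In Tn all 16 importins and all 7 exportins tested had a negative value (medians -0.16 and -0.20), of which 2 and 2 had an unadjusted p under 0.05 (47.3% and 10.3% of all genes). These lists were not corrected for the trend with gene length, and Kpna1 and Kpna4 are among the negative ones with WT Tn replicates 1 and 2 apart from the rest. In Treg 10 of the 16 and 4 of the 7 were negative. The Ran cycle and mRNA export lists lay on the other side in Tn, with medians of 0.11 and 0.02, and the lamina list was at -0.05.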

How the data were processed

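RNA was measured by stranded mRNA sequencing (single-end reads). The authors aligned reads with STAR to GRCm38 and ran RSEM, and they deposited its expected count for every gene in each library, not normalized. The study names GENCODE m15 for RSEM, and tool versions and the strand setting are not given in the sources used here. Expected counts were rounded to whole numbers.

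Libraries were grouped by their titles. A gene was tested if 4 or more of the compared libraries held 10 or more counts. The main test was edgeR 4.0.16 (R 4.3.3; glmQLFTest, robust, TMM, two-sided) on the 8 libraries of each comparison, or all 16 for the interaction, with Benjamini-Hochberg adjustment over all genes tested and a threshold of 0.05. The SE is the log2 fold change divided by the square root of F. The study names limma-voom, run here as an alternative.

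Coordinates, exon length and GC content came from GENCODE M21 (GRCm38), another release than the study's, which matched 52403 genes (98.7%), and promoters from RefSeq (GRCm38.p6). Protein sequences were not used here. No replicate pair was a duplicate, since the smallest chi-square per degree of freedom between replicates was 9.41.

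The members and all lists were chosen with earlier results of these data known. Some marker genes were left out of their lists, for a reason unrelated to their values, and are not reported here. Library values are printed for the 3 members of smallest p in each genotype comparison and the interaction, the 5 largest and 3 smallest rises in each culture comparison, and the highest and lowest member per length in WT Tn. Other genes named with values were chosen after these were seen. Of each transport list the 2 largest rises and falls are named, except that only 1 of the 2 negative mRNA export genes is. Alternatives were DESeq2 1.42.0, limma-voom (limma 3.58.1), RLE factors, no filter, 10 counts required of every library, 1 joint fit of all 16, a replicate block, a GC and length correction (with and without the block), each library left out, and replicates 1 and 2 or 3 and 4 alone.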

Additional observations from a re-analysis of the deposited data

Results flagged for a closer look

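Of 124 tests for a library far from the other 3 of its group, made for the 30 members and Aim2 in the 4 groups, 3 were positive, and chance gives about 1 in 20. Ranbp2 was at 146 CPM in Aim2-/- Tn replicate 3, with the others at 193, 196 and 200. Nup205 was at 48.0 CPM in the same library, with the others at 60.7, 61.4 and 63.1. Tpr was at 556 CPM in WT Tn replicate 2, with the others at 496, 499 and 503.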

How the results depend on the processing

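Neither genotype comparison nor the interaction called any member under any alternative (19, 19 and 26 of them). Both culture comparisons called 26 to 28 members. A lower call came from the low Nupl1 row in both genotypes when no filter was set, and from Nup50 in replicates 1 and 2 of WT cells. In replicates 3 and 4 of WT cells Nup50 was called in the opposite direction, higher at 0.43, and Nup153 was called higher at 0.24. The median log2 fold change in WT culture was 1.07 with the GC and length correction (1.07 also with the replicate block), 1.40 in replicates 3 and 4, and 1.16 to 1.26 with each library left out. In Aim2-/- culture it was 1.20 with that correction (1.20 with the block), 1.23 in replicates 1 and 2, and 1.24 to 1.38 with each library left out. In Tn the genotype median was -0.14 to -0.10 with each library left out, farthest without WT Tn replicate 4.

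Directions turned only for members that were not called in the main test. In WT culture Nup153 was at -0.15 with the correction, -0.14 with the block added, -0.11 in replicates 1 and 2, and -0.0465 to 0.094 with each library left out, negative without WT Tn replicate 3 or 4. Nup50 was at -0.038, -0.022 and -0.21 in the same order, and at -0.0123 to 0.1701, negative without the same libraries. Tpr was at -0.064 and -0.064 in WT and -0.081 and -0.0809 in Aim2-/- culture with the correction and with the block added, and Nup50 was at -0.0014 in replicates 1 and 2 of Aim2-/- cells. Under the alternatives the lowest value of Nup210 in WT culture was -0.0445 and that of Nup153 in Aim2-/- culture -0.0425. Between genotypes no member was called, and signs turned there too. In Tn Nup54 ran from -0.43 to 0.13 and Nup35 from -0.44 to 0.13. Tpr, Nup50, Rae1, Ndc1, Nup210, Nup93, Nup133, Nup88 and Pom121 also turned from negative to positive, and Sec13 and Nup107 the other way. Negative members in Tn numbered 18 to 24. The cause of these turns was not tested.

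Over all genes, the 31 calls in Tn became 127 with DESeq2, 49 with no filter, 18 with 10 counts in every library, 58 with all 16 libraries in 1 fit, 15 in replicates 1 and 2, 509 in replicates 3 and 4, and 17 to 28 with each library left out (17 to 19 without WT Tn replicate 1 or Aim2-/- Tn replicate 2, 3 or 4). The 29 in Treg became 52, 17 (10 counts in every library), 15 and 4 (replicates 1 and 2, and 3 and 4), and 10 to 17 with each library left out. The 3 interaction calls became 10 with DESeq2 and 0 with 10 counts in every library.

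The replicate block left the member medians at -0.09 (Tn), 0.00 (Treg), 1.17 and 1.30 (culture) and 0.09 (interaction), with 0, 0, 26, 27 and 0 calls, Nup153 being the one gained. Same-numbered libraries of the genotypes had correlated deviations of 0.22, 0.06, 0.35 and 0.03 in Tn and 0.49, 0.30, -0.02 and 0.42 in Treg. The means were 0.16 in Tn and 0.30 in Treg, beside -0.05 and -0.10 between libraries of different numbers. The titles do not say that equal numbers pair libraries, so the main test did not pair them. Of the 8 libraries compared, 4 in Treg and 3 in Tn correlated best with the library of their own number. This comes from the data and not from the design. The widest SE between genotypes in Tn was that of Nup37 (0.20, at 96 to 204 counts a library), and how much of it is counting error was not tested.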
